A study of Mus musculus with 6 samples.

Results

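Interferon-stimulated genes were examined in mouse BCR-ABL+ B-ALL cells (B-cell acute lymphoblastic leukaemia driven by the BCR-ABL fusion kinase) after exposure to DHA (dihydroartemisinin, the active form of the artemisinin antimalarials). The genes were a list of 40 chosen by name for their known response to interferon, and 36 of them had a probe set of their own on the array, among 22180 genes with such a probe set in all. Cells received 312 nM DHA or the vehicle DMSO for 4 h, and 3 arrays were available per group. Both groups were cultured leukaemia cells with no further treatment named. The growth protocol names p185+ cells and cells with p185T315I+Arf-/- or p53-/-, where p185 is the short form of BCR-ABL and T315I a substitution in its kinase domain, but the labels do not tie the arrays to any of them. Whether both groups, or all arrays of a group, came from the same line is not stated. Both 2 h and 4 h appear in the extraction protocol, and the treatment protocol and the titles of the DHA samples give 4 h. Separate cultures are not stated for the samples of a group, so p-values reflect only the scatter among these samples, part or all of which may be technical.

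Interferons are secreted signals of infection. Type I interferons bind the receptor pair IFNAR1 and IFNAR2, whose kinases JAK1 and TYK2 activate a transcription factor complex that includes STAT2 and IRF9. That complex binds the interferon-stimulated response element (ISRE) in the promoters of its targets, whereas the response to interferon gamma acts through the gamma-activated site (GAS). The targets include sensors of viral RNA, enzymes that degrade or block viral RNA, and feedback inhibitors of the pathway. Many are also expressed at a basal level without infection, in B-lineage cells as elsewhere.

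Both promoter elements are known binding sites of the pathway's factors, so upstream stretches of 7 of the genes that hold one are shown first. All are from RefSeq on build GRCm38.p6, written 5′ to 3′ along the gene's own strand, and each ends before the annotated transcription start. Capitals mark matches to the ISRE core (GAAA, any 2 bases, then GAAA, here on either strand) or, for Irf1 and Irf8, to TTCNNNGAA (GAS). Both strands were searched, and matches may overlap, as they do in Isg15 and Gbp3. The 7 genes were picked by name, and other genes with a match are not shown.
Ifit1, chr19:34640770-34640828, plus strand: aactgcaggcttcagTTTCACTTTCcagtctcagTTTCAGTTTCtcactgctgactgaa
Ifit3, chr19:34583358-34583431, plus strand: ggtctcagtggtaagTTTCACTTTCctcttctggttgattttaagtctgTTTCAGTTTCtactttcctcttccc
Isg15, chr4:156200860-156200911, minus strand: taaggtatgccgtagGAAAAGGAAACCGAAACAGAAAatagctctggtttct
Oas3, chr5:120777710-120777749, minus strand: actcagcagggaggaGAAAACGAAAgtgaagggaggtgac
Gbp3, chr3:142559984-142560029, plus strand: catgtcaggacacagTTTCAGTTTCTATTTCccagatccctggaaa
Irf1, chr11:53769909-53769947, plus strand: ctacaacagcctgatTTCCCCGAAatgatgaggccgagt
Irf8, chr8:120736172-120736228, plus strand: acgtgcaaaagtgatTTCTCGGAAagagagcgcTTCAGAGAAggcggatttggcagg

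RefSeq windows running from 250 bases before to 50 bases after a start were found for 26 of the 36 measured genes. The ISRE core occurred in a window of 10 of these 26 (38.5%), against 3.99% of all 27025 genes with a window. The GAS motif occurred in 7 of 26 (26.9%), against 9.55% of all genes. Ifit1 and Ifit3 each held 2 ISRE cores and Isg15 held 3. A match is a stretch of letters and does not show that a factor was bound in these cells.

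Log2 signals of the interferon-stimulated genes differed little between the DHA and vehicle arrays, as did those of most genes. Of the 36 measured genes, 32 lay above the filter on dim genes (a mean log2 signal of 4.52 over the 6 arrays) and were tested, and 0 of the 32 were called changed (limma, adjusted p at or under 0.05 over all 15526 tested genes). Over all tested genes 0.0902% were called, 0.0837% higher and 0.00644% lower, so a count of 0 in 32 is near that background. The log2 fold changes ran from -0.22 (Cmpk2) to 0.28 (Irf8), with 17 genes above 0 and 15 below, where 51.2% of all tested genes were above 0. Their median was 0.0089, beside 0.0027 over all tested genes, and the median size without regard to sign was 0.066, beside 0.067. In these bulk samples, fewer cells of a type and less RNA per cell cannot be told apart. In folds, the largest values were 1.21-fold higher for Irf8 and 1.17-fold lower for Cmpk2.

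At an unadjusted limma p under 0.05 there were 3 genes higher (Irf8, Irf1 and Ddx58) and 2 lower (Parp9 and Gbp3). The background at that threshold was 12% of all tested genes, 5.94% higher and 6.08% lower, and the share among the 32 was near it. The smallest adjusted p among the 32 was 0.261. Groups did not overlap for 4 genes, 1 higher (Ddx58) and 3 lower (Parp9, Gbp3 and Isg20), where 15.8% of all tested genes had groups that did not overlap, 7.64% higher and 8.19% lower. The 95% confidence interval of each of the 32 genes lay inside a 1.5-fold change in either direction, as it did for 96.8% of all tested genes. The widest bound, 0.53 for Oas2, corresponds to 1.44-fold. These intervals are not adjusted for the number of genes, and array signals may understate the change of dim genes.

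**Figure D1:**
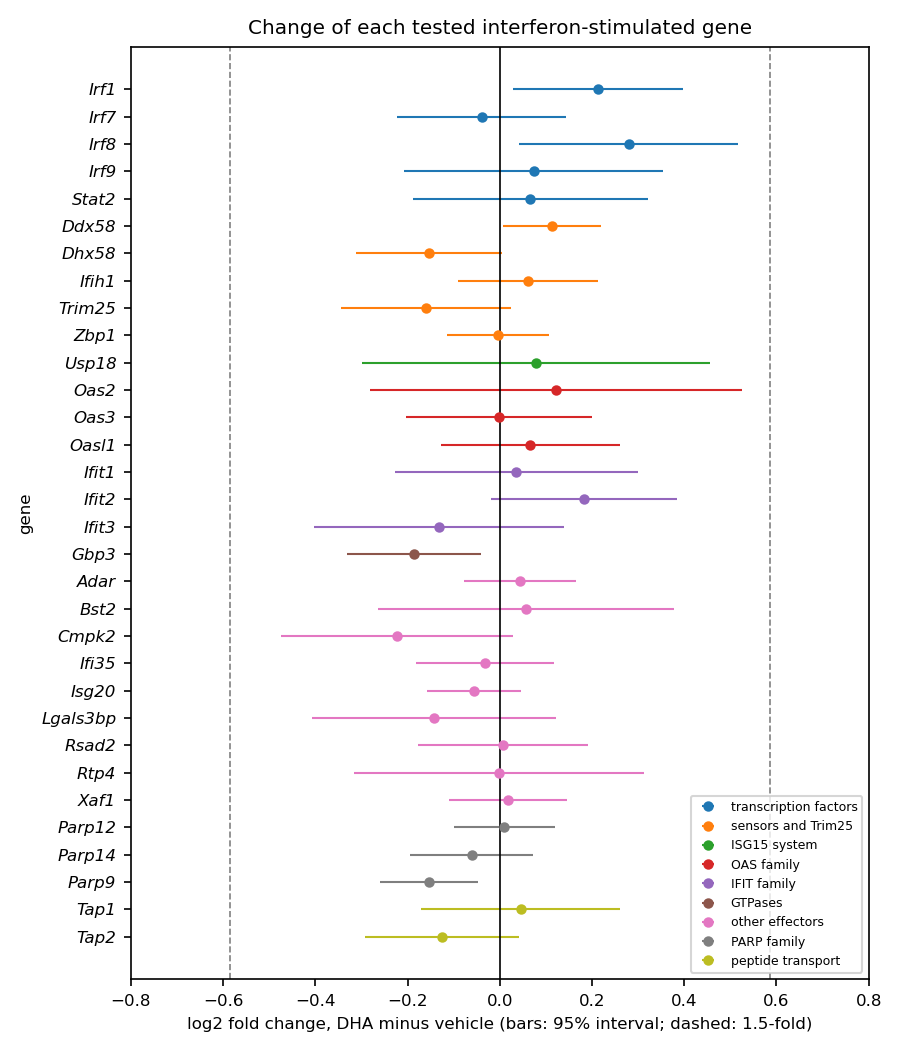
Log2 fold change (DHA minus vehicle, horizontal axis) of each of the 32 tested interferon-stimulated genes, coloured by role, with 95% intervals from limma as bars and dashed lines at a 1.5-fold change. All 32 bars lie between the dashed lines, and those of Irf8, Irf1, Ddx58, Parp9 and Gbp3 leave out 0.

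Among the transcription factors of the pathway, Irf8 and Irf1 had the highest fold changes of the whole list. Irf8, a factor of B-lineage and myeloid cells that is also induced by interferon gamma, measured 10.77, 10.64 and 10.59 on the 3 vehicle arrays and 11.05, 10.74 and 11.06 on the 3 DHA arrays (log2 signal; means 10.67 ± 0.096 and 10.95 ± 0.18, SD, n = 3 per group). DHA replicates 1 and 3 lay above every vehicle array, and DHA replicate 2 lay below the highest of them. The log2 fold change was 0.28 (95% interval 0.042 to 0.52; limma adjusted p = 0.343). A dimmer Irf8 probe set had a difference of 0.23 in the same direction, with all 3 DHA arrays (6.82, 7.08 and 7.16) above the vehicle arrays (6.80, 6.79 and 6.78).

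Irf1, a factor induced quickly by interferon gamma, measured 7.39, 7.31 and 7.45 with vehicle and 7.66, 7.45 and 7.69 with DHA. As for Irf8, DHA replicates 1 and 3 stood above the vehicle arrays and DHA replicate 2 fell within their range. The log2 fold change was 0.21 (SE 0.077; limma adjusted p = 0.350). Without DHA replicate 2, the log2 fold change was 0.29 for Irf1 and 0.38 for Irf8. These values were 0.17 and 0.22 without DHA replicate 3, and neither gene was called in any of 16 alternative settings. Stat2 and Irf9, which encode parts of the ISRE-binding complex, had log2 fold changes of 0.066 (SE 0.11) and 0.073 (SE 0.12). Irf7, which amplifies interferon production, had -0.039 (SE 0.077). Their groups overlapped.

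The RNA sensors moved by small amounts in both directions. Ddx58, which encodes RIG-I, a sensor of viral RNA ends, measured 7.66, 7.64 and 7.70 with vehicle and 7.79, 7.80 and 7.74 with DHA. Every DHA array was above every vehicle array, although the log2 fold change was 0.11 (95% interval 0.0079 to 0.22; limma adjusted p = 0.385). Dhx58, which encodes LGP2, a RIG-I relative without signalling domains, measured 6.78, 6.71 and 6.92 with vehicle and 6.60, 6.71 and 6.63 with DHA. Its lowest vehicle value and its highest DHA value met, and the log2 fold change was -0.15 (SE 0.067; limma adjusted p = 0.430; -0.096 without vehicle replicate 3).

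Trim25, a ubiquitin ligase known to act on RIG-I, measured 9.06, 8.99 and 9.08 with vehicle and 8.94, 8.99 and 8.72 with DHA. The vehicle 2 and DHA 2 values were equal to 2 decimals, and DHA replicate 3 was the lowest (log2 fold change -0.16, SE 0.078; limma adjusted p = 0.476; -0.080 without that array). Ifih1, which encodes the long-RNA sensor MDA5, measured 5.26, 5.18 and 5.27 with vehicle and 5.40, 5.21 and 5.28 with DHA. DHA replicate 1 alone stood clear of the vehicle arrays (log2 fold change 0.062, SE 0.064; limma adjusted p = 0.738; 0.0093 without that array, 0.11 without DHA replicate 2 and 0.031 without vehicle replicate 2). Zbp1, a sensor of Z-form nucleic acid linked to cell death, had a log2 fold change of -0.0037.

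Genes of the ISG15 system and the OAS and IFIT families, which are among the most strongly inducible interferon targets, included none past the test. Isg15, the ubiquitin-like modifier, lay under the filter and was not tested, with signals of 4.35, 4.29 and 4.73 with vehicle and 4.36, 4.33 and 4.49 with DHA. The highest Isg15 value was on a vehicle array. Usp18, the protease that removes ISG15 and restrains the receptor, differed by 0.079 on the log2 scale (SE 0.16; limma adjusted p = 0.876). Oas2 and Oas3, which make the 2-5A messenger that activates RNase L, had 0.12 (SE 0.17) and -0.0016 (SE 0.085).

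Oasl1, an OAS-like protein that in mouse restrains Irf7 translation, measured 5.35, 5.44 and 5.30 with vehicle and 5.29, 5.42 and 5.58 with DHA. The groups overlapped (log2 fold change 0.066, SE 0.082; limma adjusted p = 0.785). Oasl2 lay under the filter, with signals between 4.41 and 4.59. Ifit2, an RNA-binding protein linked to apoptosis, measured 6.50, 6.45 and 6.50 with vehicle and 6.83, 6.50 and 6.67 with DHA. No DHA value was below the vehicle values, and DHA replicate 2 equalled the highest of them (log2 fold change 0.18, SE 0.085; limma adjusted p = 0.459). Its relatives Ifit1 and Ifit3 had 0.036 (SE 0.11) and -0.13 (SE 0.11). The Ifit2 value was 0.10 without DHA replicate 1, and the Ifit3 value was -0.0044 without DHA replicate 1 and -0.22 without DHA replicate 3.

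**Figure D2:**
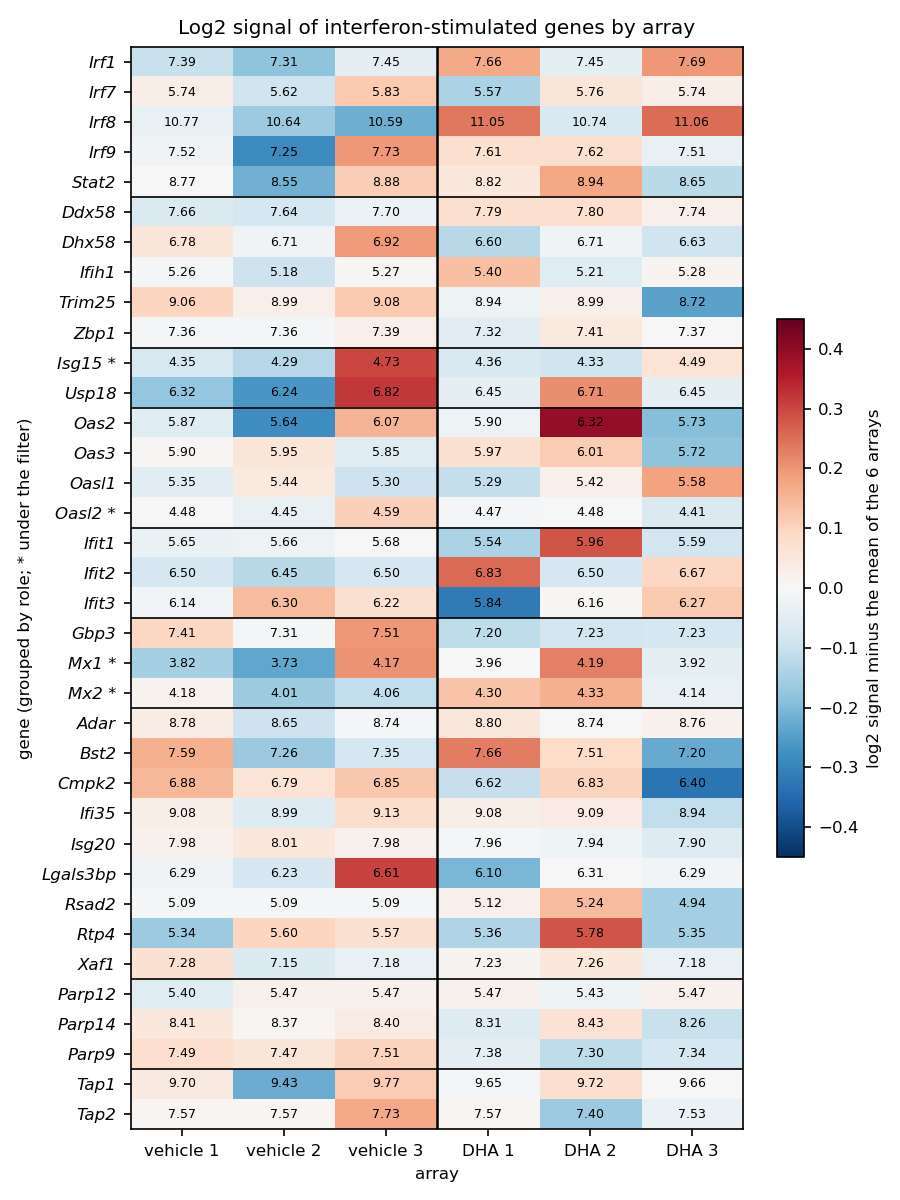
Log2 signal of the 36 measured interferon-stimulated genes (rows, grouped by role; an asterisk marks the 4 genes under the filter) on each array (columns), with colour giving the value minus the gene's mean over the 6 arrays. No group of rows is red or blue across all 3 DHA arrays, and the Usp18, Irf9, Isg15 and Lgals3bp rows are reddest on vehicle replicate 3.

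Among the interferon-induced GTPases, Gbp3, a guanylate-binding protein of the defence against intracellular pathogens, measured 7.41, 7.31 and 7.51 with vehicle and 7.20, 7.23 and 7.23 with DHA. All DHA arrays were below all vehicle arrays, and the vehicle values were the more spread (SD 0.10 against 0.019, n = 3 per group). The log2 fold change was -0.19 (95% interval -0.33 to -0.040; limma adjusted p = 0.314). Mx1 and Mx2, dynamin-like antiviral GTPases, lay under the filter, with signals of 3.73 to 4.19 and 4.01 to 4.33.

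Parp9, which with the ubiquitin ligase DTX3L acts in interferon signalling and DNA repair, had the smallest p of the list. It measured 7.49, 7.47 and 7.51 with vehicle and 7.38, 7.30 and 7.34 with DHA. The groups were separate, with a gap wider than either group's spread (SD 0.022 and 0.036, n = 3 per group), and the log2 fold change was -0.15 (95% interval -0.26 to -0.048; limma adjusted p = 0.261). A brighter probe set, which the annotation pairs with both Dtx3l and Parp9, was not tested. It measured 9.49, 9.31 and 9.35 with vehicle and 9.44, 9.37 and 9.39 with DHA, and its groups overlapped. Parp14 and Parp12, further interferon-induced ADP-ribosyltransferases, had -0.061 (SE 0.056) and 0.010 (SE 0.046). The Parp14 value was -0.11 without DHA replicate 2 and -0.026 without DHA replicate 3.

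Tap1 and Tap2 form the transporter that loads peptides for class I presentation. Tap1 measured 9.70, 9.43 and 9.77 with vehicle and 9.65, 9.72 and 9.66 with DHA, with vehicle replicate 2 the low array (log2 fold change 0.045, SE 0.091; limma adjusted p = 0.876). Tap2 measured 7.57, 7.57 and 7.73 with vehicle and 7.57, 7.40 and 7.53 with DHA. Vehicle replicate 3 was its high array and DHA replicate 2 its low array (log2 fold change -0.13, SE 0.070; limma adjusted p = 0.531), and without either of these the value was -0.072 and -0.074.

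The other effectors lay on both sides of 0. Cmpk2, a mitochondrial nucleotide kinase encoded beside Rsad2, measured 6.88, 6.79 and 6.85 with vehicle and 6.62, 6.83 and 6.40 with DHA. DHA replicates 1 and 3 were below the vehicle arrays and DHA replicate 2 was within them, and the log2 fold change of -0.22 (limma adjusted p = 0.470) was -0.33 without DHA replicate 2 and -0.11 without DHA replicate 3. Rsad2, which encodes viperin, read 5.09 on all 3 vehicle arrays and 5.12, 5.24 and 4.94 with DHA (log2 fold change 0.0076, SE 0.077; limma adjusted p = 0.979). Deposited values identical on at least 2 arrays, to every decimal given, occurred for 10 of the 32 tested genes (31.2%) and for 35.2% of all tested genes.

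Isg20, an RNA exonuclease, measured 7.98, 8.01 and 7.98 with vehicle and 7.96, 7.94 and 7.90 with DHA. The groups were separate by a small margin (log2 fold change -0.056, SE 0.043; limma adjusted p = 0.652). Lgals3bp, a secreted glycoprotein that binds galectins, measured 6.29, 6.23 and 6.61 with vehicle and 6.10, 6.31 and 6.29 with DHA. Vehicle replicate 3 stood apart (log2 fold change -0.14, SE 0.11; limma adjusted p = 0.656). The value was -0.027 without that array, -0.077 without DHA replicate 1 and -0.22 without vehicle replicate 2. A dimmer probe set had a difference of 0.038 with the other sign, and the mean of both gave -0.052. Ifi35, a regulator of innate signalling, measured 9.08, 8.99 and 9.13 with vehicle and 9.08, 9.09 and 8.94 with DHA. Its groups overlapped, and its brighter and dimmer probe sets differed in sign (-0.032 and 0.069). Bst2 (tetherin, 0.057), Adar (an RNA-editing enzyme, 0.044), Xaf1 (a partner of XIAP, 0.019) and Rtp4 (a receptor transporter, -0.0016) had log2 fold changes closer to 0 than their SE.

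Of the 4 listed genes without values of their own, Oas1a, Gbp2 and Dtx3l were on probe sets that the annotation pairs with several symbols, and Ifi44 was not named by it. Apart from the values given above for the probe set of Dtx3l and Parp9, they were not analysed here.

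Within each group, the same array was often the highest or the lowest across these genes. Vehicle replicate 3 held the highest value of its group for 18 of the 32 tested genes (56.2%), against 29% of all tested genes, and vehicle replicate 2 held the lowest for 21 (65.6%), against 34.6%. Within the DHA group, replicate 2 was highest for 19 of 32 (59.4%), against 29.2%. Vehicle replicate 3 and DHA replicate 2 are the pair whose titles carry the same number, whose meaning the labels do not state. Averaged over the 32 genes, the log2 signal was 7.14, 7.07 and 7.19 on vehicle arrays 1 to 3 and 7.13, 7.19 and 7.09 on DHA arrays 1 to 3, so the spread within groups covered the difference between them. The number on the titles was not tested as a cause.

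**Figure D3:**
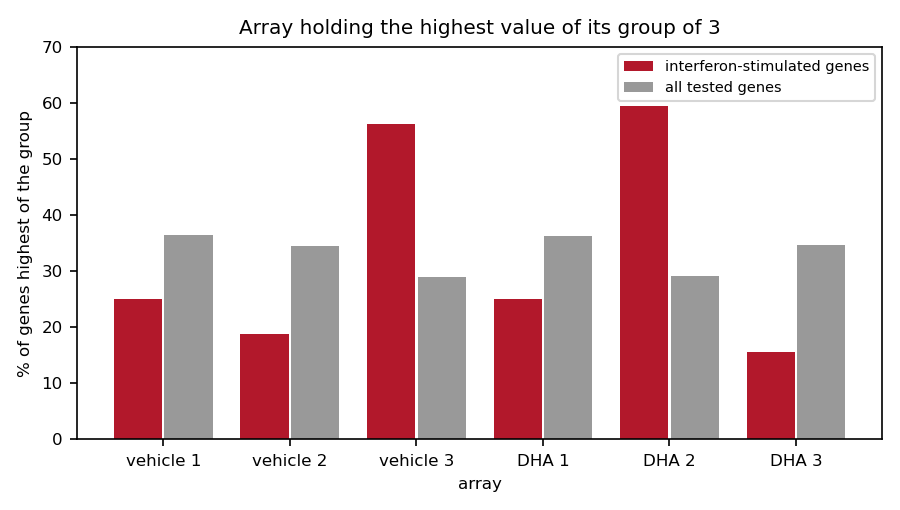
Share of genes (vertical axis, percent) for which each array held the highest of the 3 values in its group, for the 32 tested interferon-stimulated genes and for all 15526 tested genes. Vehicle 3 and DHA 2 reach 56.2% and 59.4% for the interferon-stimulated genes, against 29% and 29.2% for all genes.

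In both groups at the same time, the array with the shared title number was above the mean of the other arrays for 18 of 32 genes (56.2%) and below it for 2 (Irf8 and Oasl1). Over all tested genes these shares were 25.2% above and 31.7% below. Shares above differed between other lists. Among pathway lists they were 62.5% of 8 interferon genes (12.5% below) and 50% of 6 receptor genes (33.3% below). For 10 class I presentation genes the share above was 50%, with 0% below. Negative regulators gave 42.9% of 7 (28.6% below), and signalling and sensing genes 28.6% of 14, with 28.6% below. Among markers the shares above were 50% of 8 for B-cell precursors (12.5% below) and 60% of 5 for myeloid (20% below). T and NK markers gave 66.7% of 3 (0% below). Plasmacytoid dendritic markers gave 33.3% of 3 (33.3% below). Stromal markers gave 25% of 4 and erythroid markers 0% of 2, both with 0% below. Examples, chosen after their values were seen, were Oas2, Usp18 and Stat2. Oas2 measured 5.87, 5.64 and 6.07 with vehicle and 5.90, 6.32 and 5.73 with DHA, and Usp18 measured 6.32, 6.24 and 6.82 with vehicle and 6.45, 6.71 and 6.45 with DHA. Stat2 measured 8.77, 8.55 and 8.88 with vehicle and 8.82, 8.94 and 8.65 with DHA. In each of the 3, vehicle replicate 3 and DHA replicate 2 were the high arrays of their groups.

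Irf8, Irf1 and Ifit2 did not share that pattern. For them DHA replicate 2 was the lowest DHA array, by 0.31, 0.23 and 0.25 below the mean of the other 2 DHA arrays. The dimmer Irf8 probe set differed in this, with DHA replicate 1 its lowest DHA array. The direction of the treatment difference was the same in the pair with the shared number as in the other 4 arrays for 18 of 32 genes (56.2%), and for 58.1% of all tested genes. For Irf1 the difference was -0.0039 within that pair and 0.32 in the other arrays. For Gbp3 it was -0.28 and -0.14, and for Parp9 -0.21 and -0.12. With both numbered arrays left out, 0 of the 32 genes were called and the median log2 fold change was -0.018.

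**Figure D4:**
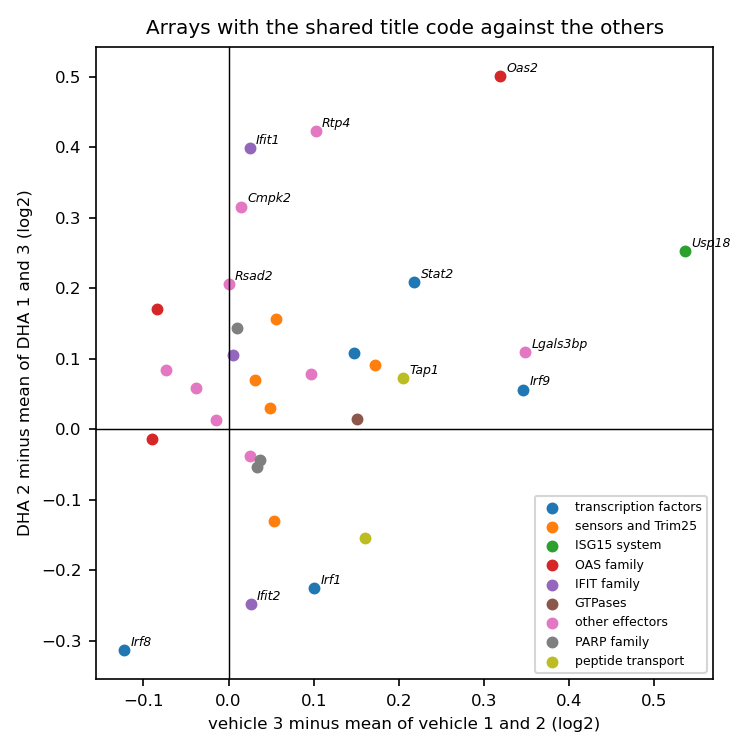
Each point is a tested interferon-stimulated gene, with vehicle replicate 3 minus the mean of the other vehicle arrays on the horizontal axis and DHA replicate 2 minus the mean of the other DHA arrays on the vertical axis (log2 units, coloured by role). Of the 32 genes, 18 lie above 0 on both axes, with Oas2 and Usp18 farthest out, and Irf8 and Oasl1 lie below 0 on both.

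Fold changes were also set beside the promoter motifs, without a test. Of the 10 genes with an ISRE core in their window, 9 were tested (Isg15 lay under the filter), and these had a median log2 fold change of 0.036 (range -0.19 to 0.11), beside 0.019 for the 15 tested genes with a window and no core. Of the 7 genes with a GAS motif, all tested, the median was 0.057 and the range -0.056 to 0.28, and of the 17 without it the median was 0.010. Irf1 and Irf8, shown above with their GAS motifs, were the top of that range. The others with a GAS motif, not shown, were Ifit2 (0.18), Bst2 (0.057), Adar (0.044), Ifi35 (-0.032) and Isg20 (-0.056). The array with the shared number was high in both groups for 5 of the 9 genes with an ISRE core and 7 of the 15 without it. It was so for 1 of the 7 genes with a GAS motif and 11 of the 17 without it. These counts are descriptions over few genes.

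Further genes of the interferon pathway, in lists chosen by role, also gave 0 called genes. Of 8 tested interferon genes, 4 were above and 4 below 0, with a median of 0.017, and near-identical interferon alpha copies can share probes. Ifnb1, the interferon beta gene, lay under the filter at a mean log2 signal of 3.39 ± 0.15 without and 3.29 ± 0.026 with DHA (SD, n = 3 each). Of the 6 receptor genes, 5 were below 0. Ifnar1 measured 9.55, 9.53 and 9.52 with vehicle and 9.36, 9.28 and 9.42 with DHA, with separate groups (log2 fold change -0.18, SE 0.052; limma adjusted p = 0.261). Its partner Ifnar2 had 0.022 (SE 0.046).

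Among 14 tested signalling and sensing genes, the median log2 fold change was -0.0092. Jak1 had -0.048, Tyk2 -0.091, Jak2 -0.15 and Irf3, the factor that first induces interferon beta, 0.13, all with groups that overlapped. Of 7 negative regulators, 5 were below 0. Socs3, an inhibitor of JAK signalling, measured 7.37, 7.20 and 7.35 with vehicle and 6.96, 7.12 and 6.87 with DHA. Every DHA array was below every vehicle array (log2 fold change -0.33, 95% interval -0.52 to -0.13; limma adjusted p = 0.208). Socs1 had -0.30 (SE 0.13; limma adjusted p = 0.416), with DHA replicate 2 inside the vehicle range.

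Of 10 tested class I presentation genes, 8 were below 0, and their median was -0.038. They ranged from -0.10 for the immunoproteasome subunit Psmb8 to 0.055 for Psmb10. In a list of other interferon-stimulated genes, 41 were tested, 17 were above and 24 below 0, and the median was -0.038. At an unadjusted limma p under 0.05 there were 1 higher and 5 lower of the 41, against 5.94% and 6.08% of all tested genes. The 5 were the immunity-related GTPases Irgm1 (-0.22) and Igtp (-0.35), the RNA-activated kinase gene Eif2ak2 (-0.19), Trim30a (-0.19) and the death ligand gene Tnfsf10 (-0.22), and the 1 was Tor3a (0.31). Their adjusted p in limma ranged from 0.197 to 0.373. Irgm1 measured 7.18, 7.27 and 7.26 with vehicle and 7.01, 7.08 and 6.95 with DHA, and its groups were separate. In this list the array with the shared number was above the others in both groups for 19 of 41 genes (46.3%) and below them for 8 (19.5%).

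**Figure D5:**
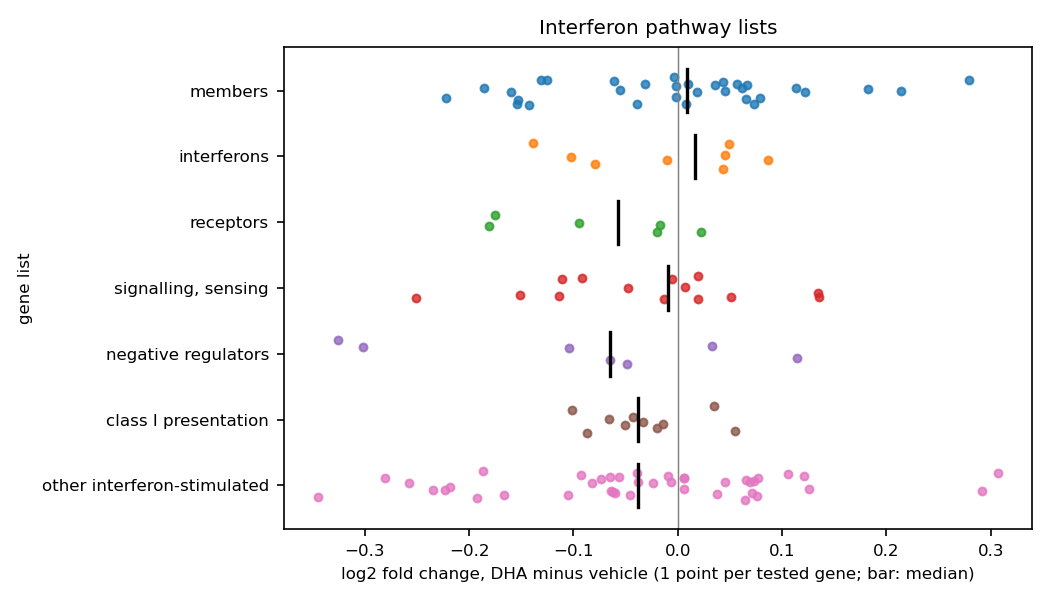
Log2 fold change (DHA minus vehicle, horizontal axis) of each tested gene in the 32-gene list and in 6 further lists of the interferon pathway, with a bar at each list's median. The medians lie between -0.065 for the negative regulators and 0.017 for the interferons, and 0 genes in these lists were called.

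Markers of B-cell precursors were far above the filter, apart from Vpreb1. Signals were 12.70 for Cd79a, a chain of the B-cell receptor complex, 10.85 for the B-lineage factor Pax5 and 13.04 for the surrogate light chain gene Igll1 with vehicle, whereas Vpreb1, the other surrogate light chain gene, measured 4.78. Marker lists of other cells gave mean signals per array of 4.72 to 4.81 with vehicle and 4.73 to 4.81 with DHA for 8 myeloid markers, and of 4.50 to 4.55 and 4.48 to 4.60 for 8 T and NK markers. Stromal markers gave 5.17 to 5.21 and 5.10 to 5.24 (5 genes), erythroid markers 5.48 to 5.53 and 5.51 to 5.53 (2 genes) and plasmacytoid dendritic markers, which include the B-lineage genes Tcf4 and Spib, 6.45 to 6.62 and 6.51 to 6.56 (5 genes). No marker was called. At an unadjusted limma p under 0.05 there were 2, where 12% of all tested genes passed that threshold. Igll1 (-0.12) was 1 of 8 tested B-cell precursor markers, and the NK gene Nkg7 (0.18) was 1 of 3 tested T and NK markers. The other lists gave 0, with 5 myeloid, 4 stromal, 3 plasmacytoid dendritic and 2 erythroid markers tested. Signals of different probe sets do not rank amounts of RNA.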

How the data were processed

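The deposited table held log2 intensities of 41345 probe sets on 6 arrays. RMA, a method that corrects, normalizes and summarises probes across arrays, and Partek 6.6 are named in the submitters' processing notes, without settings, order or genome build. Array medians lay between 5.25 and 5.31. Precision is limited by how many arrays there were.

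Gene symbols came from the platform annotation and were brought up to date through RefSeq, and only the 23521 probe sets with 1 symbol were used. A gene was represented by its brightest probe set (6-array mean). A filter at the 30th percentile of these means (4.52) left 15526 genes. DHA was compared with vehicle in limma version 3.58.1 (R version 4.3.3, empirical Bayes with default settings, two-sided, 4 residual and 2.77 prior degrees of freedom), with Benjamini-Hochberg adjustment over all tested genes. The fit was tested on simulated data. Intervals are 95% and unadjusted. Groups came from the agent label, and replicate numbers from accession order only name arrays.

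The genes, lists and tests were chosen with earlier results of these data known, so list medians and counts carry no test of their own. By rule, values on every array are given for the 12 tested genes with the smallest p, the 3 brightest and the 3 dimmest. In the other lists the rule named up to 4 genes with the smallest p, any called gene and key pathway genes. Outside it, Psmb10, Ifnb1, Igll1, Nkg7, Trim30a and Tnfsf10 were picked with their values in view. Alternatives changed the filter, normalization, choice of probe set, variance model, threshold and arrays used.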

Additional observations from a re-analysis of the deposited data

How the results depend on the processing

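The count of 0 called genes among the 32 held in each of 18 alternatives. Where it was counted, 1 to 7 of the genes were at an unadjusted limma p under 0.05. The 7 were found without DHA replicate 2, where 1882 of all 15526 tested genes passed that threshold. The 1 was found without DHA replicate 1, where 1356 of all tested genes passed it. The count of called genes over all genes, 14, was 24 without DHA replicate 2 and 0 without any other single array (1356 to 1710 at an unadjusted limma p under 0.05). It was 5 with no filter, 62 with a filter at the 50th percentile, 52 after median centring, 63 after quantile normalization, 62 with trend and robust moderation, 41 with a term for the shared title number, 0 without both arrays that carry it (1569 at an unadjusted limma p under 0.05), 80 with an adjusted threshold of 0.1 and 2 with each probe set tested. Some of these use fewer arrays or genes. For the others the cause was not tested. The median log2 fold change of the 32 genes ranged from -0.051 (without DHA replicate 2) to 0.042 (without DHA replicate 3) on leaving out 1 array, and median centring and quantile normalization moved the median of all genes to -0.00023 and 0.0080. Of the 32, 16 kept their direction in every alternative, among them Irf1, Irf8, Ddx58, Parp9 and Gbp3. The groups of the last 3 are separate, so leaving out arrays could not turn their sign. The other 16 turned sign in at least 1 alternative. Some alternatives could not turn a sign. Changing the filter, the trend and robust moderation or the term for the title number left each log2 fold change as it was. So did the choice of probe set for genes with only 1. No paired analysis was possible because the groups share a title number for 1 array each. On leaving out 1 array, log2 fold changes that turned sign ranged from -0.093 to 0.021 for Irf7, -0.052 to 0.19 for Irf9, -0.024 to 0.14 for Stat2, -0.027 to 0.020 for Zbp1, -0.032 to 0.26 for Usp18, -0.045 to 0.25 for Oas2, -0.058 to 0.089 for Oas3, -0.0082 to 0.14 for Oasl1, -0.097 to 0.12 for Ifit1, -0.061 to 0.087 for Rsad2, -0.044 to 0.19 for Bst2, -0.14 to 0.072 for Rtp4, -0.0077 to 0.058 for Xaf1, -0.069 to 0.015 for Ifi35, -0.015 to 0.025 for Parp12 and -0.055 to 0.11 for Tap1. Other sign changes were Zbp1 (0.0099) and Oas3 (0.0024) under quantile normalization, Oas3 (0.011) with array weights, Ifi35 (0.018) with the mean of probe sets and (0.069) with the probe set of highest variance, and Ifit1 (-0.089), Rsad2 (-0.061) and Xaf1 (-0.014) without both arrays of the shared title number.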
